A study of Rattus norvegicus with 6 samples.

Results

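Heat shock proteins and DnaJ proteins were examined in the liver of female Sprague Dawley rats that had received faecal microbiota from 1 of 2 kinds of donor. The members were every gene whose symbol begins with Hsp followed by a family letter or digit, or with Dnaja, Dnajb or Dnajc and a number, with the basement membrane gene Hspg2 left out. This rule gave 73 of the 30957 genes in the table. Of the 73 genes, 57 had enough counts to be tested, among 12210 genes tested in all, and 6 had no count in any liver.

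Chaperones bind unfolded proteins and help them fold. Hsp70 proteins hold short exposed stretches of a client in a cycle driven by ATP, DnaJ proteins (also called Hsp40) deliver clients and start that cycle, Hsp90 proteins act later on partly folded clients, and small heat shock proteins keep clients from aggregating. Each compartment has its own set. The cytosolic set is raised by heat and proteotoxic stress through heat shock factor 1, while the set in the lumen of the endoplasmic reticulum (ER) is raised by the unfolded protein response, which hepatocytes need for their high output of secreted plasma proteins.

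In the study, androgen-treated rats served as a model of polycystic ovary syndrome, and the transfer asked whether their gut bacteria alone affect a recipient. Both recipient groups were made pseudo germ-free with ampicillin, neomycin, metronidazole and vancomycin in the drinking water. They were then gavaged daily with pooled faecal pellets from donors given phosphate-buffered saline (t-PBS) or dehydroepiandrosterone (t-DHEA), an androgen precursor. Recipients were not dosed with the androgen themselves, although the transplant also carried its sulphate (DHEA-S) according to the study, and the livers analysed here include no group without antibiotics or without a transfer. The rats were bought as weanlings, 3 weeks old, and 3 livers were sequenced in each group. Because pellets were pooled, each recipient had no donor of its own. RNA of 6 snap-frozen livers was sequenced, and 12348511 to 14316886 fragments per liver were assigned to genes, so that 3 counts, used here as the detection floor, correspond to 0.21 to 0.247 CPM (counts scaled to library size). All 10 hepatocyte markers were detected, with a summed level of 185000 to 200000 CPM in t-PBS and 198000 to 214000 CPM in t-DHEA livers. In bulk tissue, fewer cells of a type and less RNA per cell cannot be told apart.

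The promoter sequences of 3 ER members and of 2 members with a heat shock element are shown first. Of the 14 ER members, these 3 alone held the ER stress element. The 250 bases before the start site are given for the ER genes (RefSeq, build GRCr8, 5′ to 3′ on the strand of the gene), with capitals marking the ER stress element, which is CCAAT, 9 bases of any kind and CCACG, searched on both strands.
Hspa5, GRCr8 chr3:38452766-38453015, plus strand: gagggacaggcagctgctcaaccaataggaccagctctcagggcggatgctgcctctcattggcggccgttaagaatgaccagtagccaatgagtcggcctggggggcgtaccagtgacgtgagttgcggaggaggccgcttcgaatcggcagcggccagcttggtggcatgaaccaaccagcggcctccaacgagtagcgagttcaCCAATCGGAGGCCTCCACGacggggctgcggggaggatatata
Hsp90b1, GRCr8 chr7:23012294-23012543, minus strand: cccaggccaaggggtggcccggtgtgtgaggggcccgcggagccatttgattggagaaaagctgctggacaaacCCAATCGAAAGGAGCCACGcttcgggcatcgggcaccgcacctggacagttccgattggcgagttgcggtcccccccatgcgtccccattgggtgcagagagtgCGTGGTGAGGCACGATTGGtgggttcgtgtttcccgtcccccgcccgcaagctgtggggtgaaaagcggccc
Dnajc3, GRCr8 chr15:102432417-102432666, plus strand: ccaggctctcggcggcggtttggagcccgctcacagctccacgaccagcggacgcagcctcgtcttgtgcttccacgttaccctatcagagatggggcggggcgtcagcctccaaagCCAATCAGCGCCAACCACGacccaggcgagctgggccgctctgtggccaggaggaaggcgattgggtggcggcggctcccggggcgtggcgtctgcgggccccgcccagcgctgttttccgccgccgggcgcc
The element began 43 bases before the start site in Hspa5 and 133 bases before it in Dnajc3. Hsp90b1 held 2 copies, in opposite orientations. Among 33469 RefSeq promoters of the same window, 22 held the element (0.0657%), and 3 of them belonged to the 58 members that had a promoter in the table.

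The heat shock element is built from the unit GAA in alternating orientation with 2 bases between units. The pair GAANNTTC, which reads the same on both strands, lay in 12 of the 58 member promoters (20.7%) and in 8.59% of all promoters, and a run of 3 such units, which contains the pair, lay in 4 members (6.9%) and in 0.798% of all promoters. The 4 members were Dnaja1, Hspa8, Hsph1 and Hspd1. The units differ, since each member was counted with 1 promoter while the shares of all promoters count every promoter, also where a gene has more than 1. Stretches around the run (capitals) are shown for the Hsp110 gene Hsph1 and for Hspd1, where overlapping runs lay near the far end of the window.
Hsph1, GRCr8 chr12:10427312-10427364, plus strand: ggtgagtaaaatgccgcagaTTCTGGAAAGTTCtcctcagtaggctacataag
Hspd1, GRCr8 chr9:64084242-64084287, minus strand: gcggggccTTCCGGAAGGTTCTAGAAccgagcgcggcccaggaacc
A match to these letters is a description of the sequence and was not tested for binding.

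The liver expressed a few chaperones at high levels and most at low levels. Per length, in FPKM (fragments scaled for gene length and library size, the mean of 6 livers), the highest were the ER Hsp70 Hspa5 (BiP) at 475, the ER Hsp90 Hsp90b1 (GRP94) at 258, the cytosolic Hsp90 Hsp90ab1 at 250, the cytosolic DnaJ Dnaja1 at 151, the mitochondrial chaperonin Hspd1 (Hsp60) at 138 and the ER DnaJ Dnajc3 (p58IPK) at 125 FPKM. The inducible cytosolic genes Dnajb1 and Hspb1, a small heat shock gene, were far lower, with means of 8.43 and 9.19 FPKM. Hsph1 and the small heat shock gene Hspb8 lay between, at 32.7 and 39.0 FPKM.

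**Figure D1:**
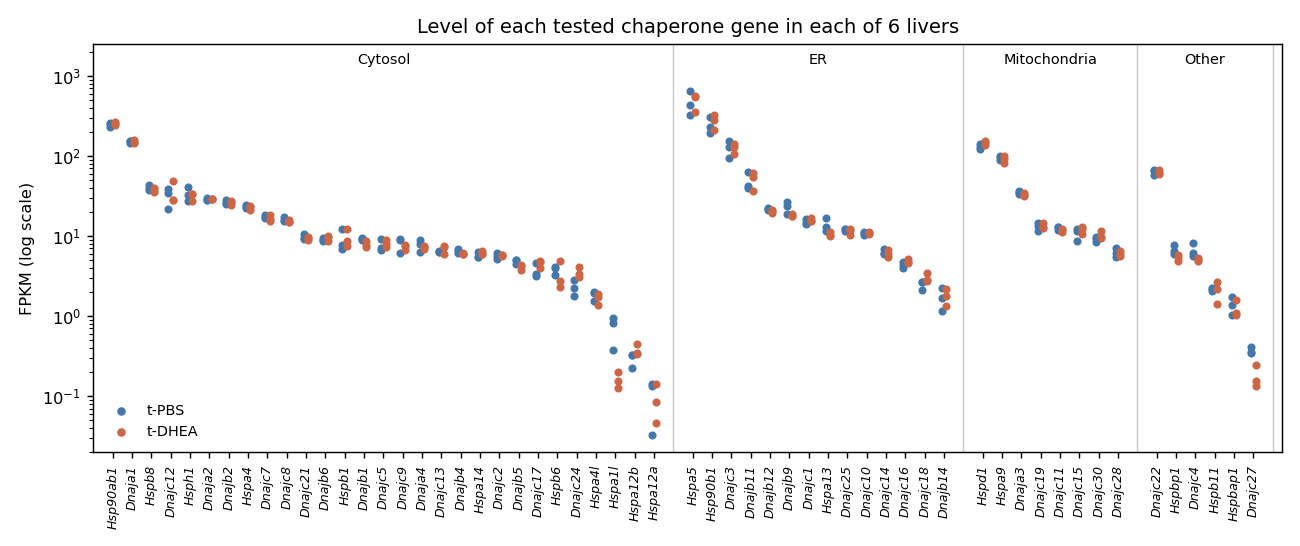
Level of each of the 57 tested members in each liver, in FPKM on a log scale, with t-PBS livers in blue and t-DHEA livers in orange, grouped by compartment and ordered by mean level. The points of the groups overlap or nearly overlap for most genes, and Hspa1l and Dnajc27, near the bottom of the scale, are the clearest exceptions.

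Several gene models in the annotation do not carry the reads that their names would lead one to look for. Hsp90aa1, the stress-inducible cytosolic Hsp90, was listed at 0 in all 6 livers, as were Hspa1a, Hspb9, Dnajb8, Dnajc5b and Dnajc5g. Another chromosome 6 row, LOC103692716, is described as HSP 90-alpha and had 1 to 6 counts per liver. The Hsp90aa1 row lies wholly inside the Dync1h1 row, which had 550 to 818 counts per liver. The row named Hspa8 (chromosome 5, 99031013 to 99033107, build Rnor_6.0) had 1 to 5 counts per liver, while a chromosome 8 row described as the heat shock cognate 71 kDa protein had 85 to 139 counts and a chromosome 11 row, LOC680121, described as similar to heat shock protein 8, had 796 to 1061 counts. With several rows described as this protein, the level of the constitutive Hsp70 is uncertain, and how reads were split among the rows was not tested. The fold change of LOC680121 was -0.13 ± 0.10 on the log2 scale (SE), which did not pass the test (edgeR quasi-likelihood adjusted p = 0.987). No row carries the name Hspe1, the partner of Hspd1 in the mitochondrial chaperonin, and no value is given for it.

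Most chaperone genes differed little between recipients of the 2 kinds of microbiota. A gene was called when edgeR's quasi-likelihood test gave an unadjusted p below 0.05 and the fold change exceeded 1.2, the thresholds of the study. Under this rule 5 of the 57 tested members were called (8.77%), against 604 of 12210 genes overall (4.95%). Of these, 4 were lower in t-DHEA livers (Hspa1l, Dnajc27, Hspa13 and Dnajb9; 2.98% of all genes were called lower) and 1 was higher (Dnajc24; 1.97% of all genes were called higher). After Benjamini-Hochberg adjustment over all genes, no member passed, the lowest edgeR adjusted p being 0.796. No gene of the whole table passed in edgeR at this level, where 634 genes had an unadjusted p below 0.05, and DESeq2 gave 24 genes but no chaperone. All 5 calls are therefore unadjusted results. They include Hspa1l, which passed the filter through the t-PBS livers alone, so its place in this count carries little weight. The change of 47 members (82.5%) stayed within 1.2-fold, as did that of 80.2% of all genes. The median log2 fold change was -0.019 over all tested members, -0.019 over 29 cytosolic and nuclear members, 0.076 over 14 ER members and 0.024 over 8 mitochondrial members, beside 0.001 over all genes.

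**Figure D2:**
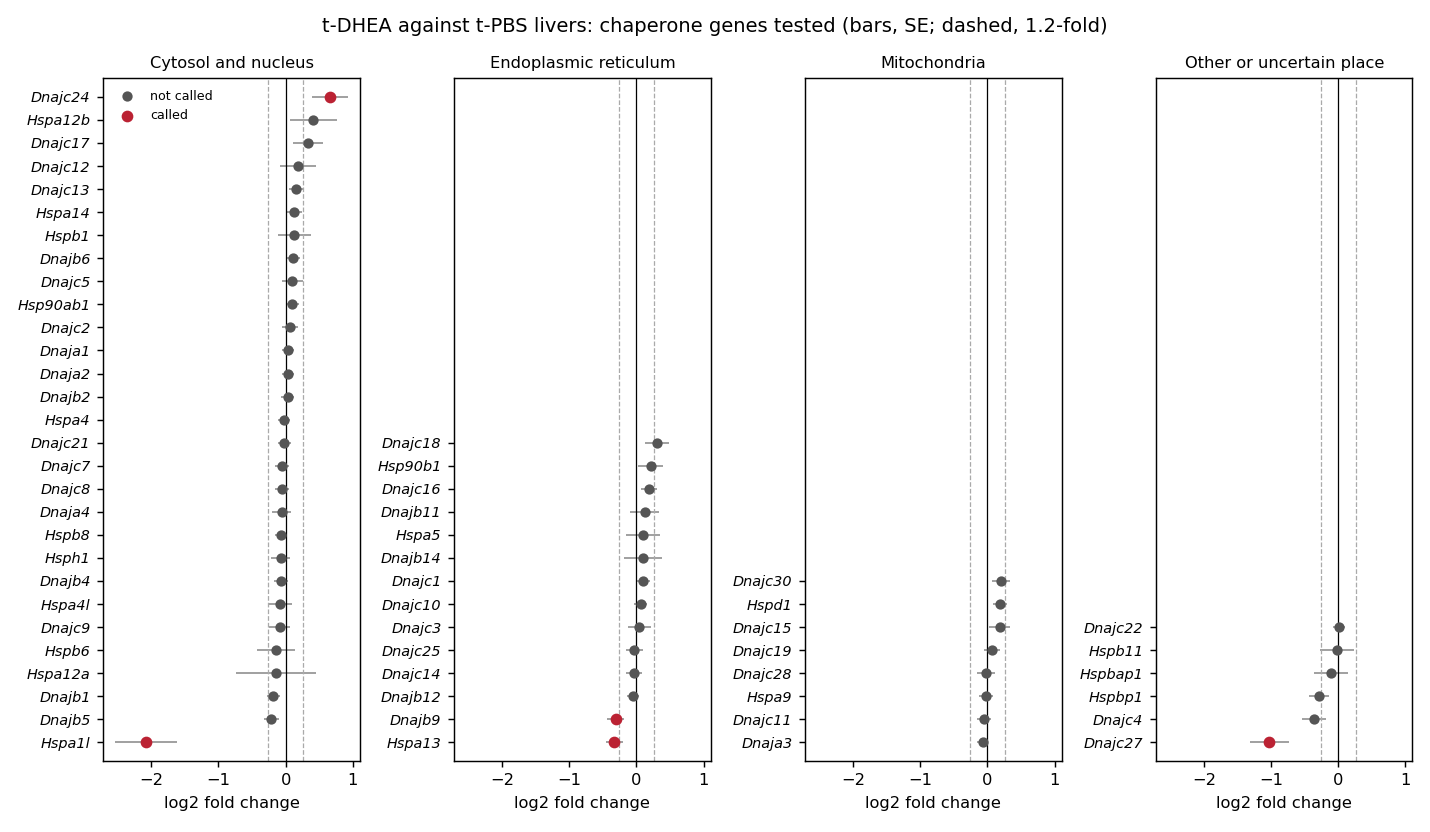
Fitted log2 fold change of t-DHEA against t-PBS livers for the 57 tested members by compartment, with bars for the standard error, dashed lines at 1.2-fold and red points for the 5 called genes. Hspa1l at -2.08 and Dnajc27 at -1.03 lie far to the left, and the mitochondrial genes all lie between the dashed lines.

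Hspa1l, which encodes an Hsp70 close to the inducible Hspa1a and Hspa1b and is best known from testis, was the member with the greatest change. Its counts were 13, 30 and 26 in t-PBS and 6, 5 and 4 in t-DHEA livers, or 0.91, 2.21 and 1.96 CPM against 0.495, 0.374 and 0.309 CPM. The groups did not overlap, although all counts were few. The fold change was -2.08 ± 0.46 (log2, SE, n = 3 livers per group; edgeR quasi-likelihood adjusted p = 0.796), a level 4.24-fold higher in t-PBS. Hspa1l entered the test through the t-PBS livers alone, since no t-DHEA liver reached the cutoff of 0.76 CPM, so a difference was built into its passing the filter. Its value was -2.39 to -1.84 as each liver was left out in turn.

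Its inducible relative Hspa1b was below the filter, at counts of 2, 15 and 9 in t-PBS and 1, 2 and 0 in t-DHEA livers. The groups met at 2 counts. The ratio of the summed counts, 26 against 3, scaled by the summed library sizes of each group, was 8.11 (exact 95% binomial interval 2.48 to 41.8, counting error only). Without the filter it met the call, with an edgeR quasi-likelihood adjusted p = 0.895. Hspa1a had no count. All 3 rows are on chromosome 20 in build Rnor_6.0, at 4959294 to 4964963 for Hspa1l, 4877324 to 4879779 for Hspa1b and 2699712 to 2701815 for Hspa1a. The Hspa1b row also lies inside rows of 3 RT1-CE major histocompatibility genes. These Hsp70 genes are known as close relatives, so their separate values are uncertain, and how reads were split among them was not tested.

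Dnajc27, a small GTPase with a J domain (also called RBJ), was the other member with a change of over 2-fold. Its counts were 51, 39 and 40 with t-PBS and 26, 18 and 15 with t-DHEA, or 3.15 ± 0.37 against 1.55 ± 0.52 CPM (SD, n = 3). The groups were separate. The log2 fold change was -1.03 ± 0.29 (SE; edgeR quasi-likelihood adjusted p = 0.805), and the gene was called in all 12 alternative analyses, with values of -1.33 to -0.78.

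Dnajc24, the J protein of diphthamide synthesis (DPH4), was the single member called higher in t-DHEA. Its counts were 20, 23 and 30 in t-PBS and 40, 36 and 32 in t-DHEA livers, or 1.79 ± 0.44 against 2.82 ± 0.43 CPM (SD, n = 3). The groups did not overlap, but the t-PBS liver with most counts came within 2 counts of the lowest t-DHEA liver. The log2 fold change was 0.66 ± 0.27 (SE; edgeR quasi-likelihood adjusted p = 0.957). The call was lost in DESeq2 (0.66), with the replicate number as a block (0.67) and without t-PBS 1 or 2 or t-DHEA 1 or 2, where the value was 0.51 to 0.69.

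**Figure D3:**
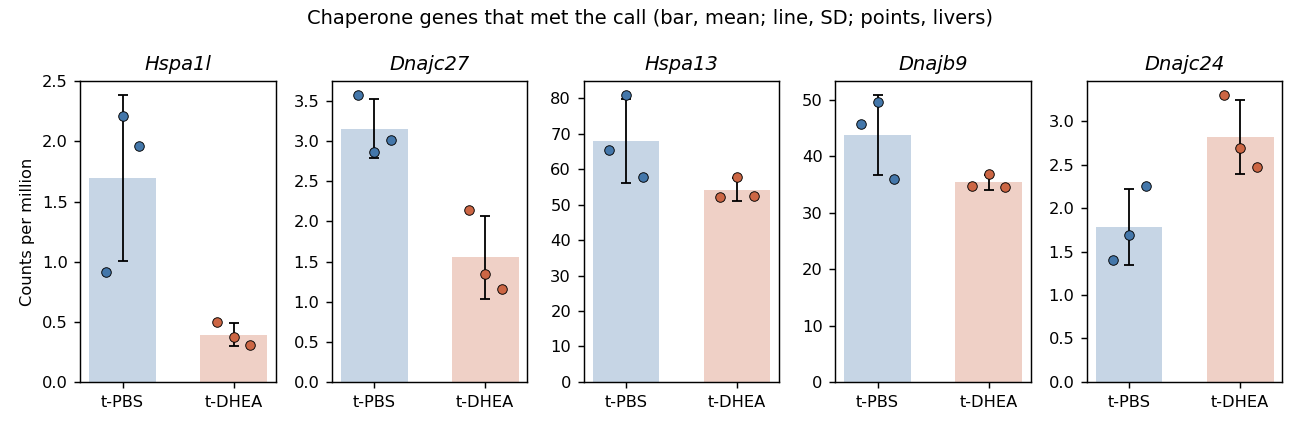
CPM of the 5 called members in each liver, with bars for the group mean and lines for the SD of 3 livers. Hspa1l, Dnajc27 and Dnajc24 separate the groups, while the lowest t-PBS liver of Hspa13 and Dnajb9 falls within the t-DHEA range.

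The summed markers of some other cell types also separated the groups, and those of others did not. The summed level of 8 mesothelial markers was 35.4 to 37.7 CPM in t-PBS and 1.87 to 28.6 CPM in t-DHEA livers, that of 7 bile duct markers 18.9 to 23.6 against 9.49 to 17.1 CPM, and that of 8 stellate cell and fibroblast markers 562 to 730 against 463 to 544 CPM. Of 5 red blood cell markers the sum was 185 to 284 CPM in t-PBS and 304 to 589 CPM in t-DHEA livers. All markers in these lists were detected. The sums did not reflect every marker. Of 5 tested bile duct markers 4 lay lower in t-DHEA and 1 higher, with only Krt19 and Krt7 called. Of 8 tested stellate cell and fibroblast markers 6 lay lower and 2 higher, with only Col1a1, Lum and Col3a1 called. The sums for smooth muscle (44.4 to 50.6 CPM in t-PBS, 49.4 to 66.9 CPM in t-DHEA) and endothelium (236 to 354 against 330 to 340 CPM) overlapped. So did those for Kupffer cells and macrophages (426 to 516 against 464 to 641 CPM) and lymphocytes (5.11 to 6.64 against 5.91 to 6.85 CPM). Apart from cell types, of 14 tested core clock and output genes 4 were called higher and 1 lower (35.7%, against 4.95% of all genes). The part of these shifts in the changes of Hspa1l, Dnajc27 and Dnajc24 was not tested.

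The cytosolic chaperones outside these genes differed little. Hsp90ab1 measured 822, 807 and 745 CPM in t-PBS and 823, 847 and 879 CPM in t-DHEA livers. Each t-DHEA liver was above each t-PBS liver, by a margin of about 1 CPM at the nearest point. In FPKM the groups overlapped, at 227 to 256 in t-PBS and 246 to 265 in t-DHEA livers. The log2 fold change was 0.10 ± 0.10 (SE; edgeR quasi-likelihood adjusted p = 0.988). Dnaja1, the most abundant cytosolic DnaJ gene, ranged over 233 to 260 CPM, and the Hsp110 genes Hspa4 and Hsph1, which release ADP from Hsp70, had log2 fold changes of -0.02 ± 0.09 and -0.07 ± 0.14 (SE). Dnajb1, a principal heat shock factor 1 target, measured 34.4, 33.9 and 33.4 CPM in t-PBS and 29.4, 32.7 and 27.6 CPM in t-DHEA livers. Its t-DHEA values all lay below its t-PBS values, as did those of its relative Dnajb5 (20.3 to 23.4 against 17.4 to 20 CPM), at log2 fold changes of -0.18 ± 0.10 (adjusted p = 0.987) and -0.21 ± 0.11 (adjusted p = 0.974; SE, edgeR quasi-likelihood for both). Of the small heat shock genes, Hspb8 ranged over 64.9 to 74.0 CPM, and Hspb1 and Hspb6 varied up to 2.11-fold between livers without a split by group. Dnaja2 (50.3 to 54.8 CPM) was among the steadiest members. Dnajc12, a co-chaperone of phenylalanine hydroxylase, was among the most variable, at 43.4, 26.4 and 48.6 CPM in t-PBS and 36.1, 62.3 and 35.9 CPM in t-DHEA livers, again with overlap. Hspa14, an Hsp70 that works at the ribosome, had a log2 fold change of 0.13 ± 0.12 (SE).

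Besides Hspa1b and the 6 genes without counts, 9 members were too low to test. They had 1 to 39 counts over the 6 livers, with Hspa2, known from male germ cells, at 22 counts in t-PBS and 17 in t-DHEA, and Dnajb13, known from cilia, at 2 and 9.

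In all, 13 of the 57 tested members (22.8%) had groups that did not overlap in CPM, 7 higher and 6 lower in t-DHEA, against 10.1% of all genes. The 6 lower were Hspa1l (which passed the filter through the t-PBS livers alone), Dnajc27, Dnajb1, Dnajb5, Dnajc4 and Hspbp1. The last encodes a nucleotide exchange factor that acts on Hsp70, with 8.61, 10.8 and 9.43 CPM against 7.09, 8.52 and 7.95 CPM and a log2 fold change of -0.29 ± 0.15 (SE; edgeR quasi-likelihood adjusted p = 0.974). It met the call in limma (-0.32). Dnajc4 measured 7.28, 7.59 and 10.6 CPM against 6.60, 6.88 and 6.33 CPM (-0.36 ± 0.18, SE) and met the call without t-PBS 1 (-0.46) and in limma (-0.37). The 7 higher were Dnajc24, Dnajc16, Dnajc18, Dnajc30, Hspa12b, Hsp90ab1 and Hspd1. Of these, Dnajc16, Dnajc30, Hsp90ab1 and Hspd1 had overlapping groups in FPKM. An exact permutation test of 3 against 3 livers cannot go below p = 0.1, so separation of a single gene carries little weight.

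Few genes around the cytosolic chaperones met the call. None of the tested heat shock factor genes Hsf1, Hsf2 and Hsf4 was called, nor was Hsbp1, whose product binds heat shock factor 1, with Hsf1 at -0.06 ± 0.14 (log2, SE). Also not called were 22 cytosolic co-chaperones, of which 19 lay slightly higher in t-DHEA (median log2 fold change 0.071), and 14 chaperonin CCT and prefoldin subunits (median 0.017), and DESeq2 called none of these genes either. Bag3, a co-chaperone that is strongly induced by heat shock factor 1, was at 26.5 to 29.8 CPM in t-PBS and 26.2 to 32.9 CPM in t-DHEA livers. Of 15 immediate early genes, which respond to many stimuli within minutes, Ier3 was called (-0.40 ± 0.16 on the log2 scale, SE; edgeR quasi-likelihood adjusted p = 0.957), and their median was -0.226. This list depended on the analysis: DESeq2 also called Myc (-0.71), no gene was called with the replicate block or without t-PBS 1 or t-DHEA 1, and without t-DHEA 2 Fos (-2.21), Fosb (-2.75), Egr1 (-1.72) and Ier3 (-0.51) were called, all lower in t-DHEA (log2). Fos, at 25.1, 5.53 and 15.6 CPM in t-PBS and 4.29, 13.8 and 2.39 CPM in t-DHEA livers, varied widely within both groups.

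Among ER members, 2 were called between the groups, 4 including Hspa5 shared a liver-to-liver pattern described below, and the others did neither. Hspa13 (Stch), a truncated microsomal Hsp70, and Dnajb9 (ERdj4), a DnaJ partner of BiP that restrains the stress sensor IRE1, were called lower in t-DHEA. Hspa13 measured 65.4, 80.8 and 57.7 CPM in t-PBS and 52.1, 57.9 and 52.5 CPM in t-DHEA livers (log2 fold change -0.33 ± 0.13, SE; edgeR quasi-likelihood adjusted p = 0.957). Dnajb9 measured 45.7, 49.7 and 36.0 CPM against 34.7, 36.9 and 34.6 CPM (-0.31 ± 0.13, SE; edgeR quasi-likelihood adjusted p = 0.957). For both genes t-PBS 3 lay within the t-DHEA range. Both calls were fragile: Hspa13 kept its call in 2 and Dnajb9 in 1 of the 6 analyses that left out a liver, and DESeq2 lost that of Dnajb9 (-0.31). Where a call was lost on leaving out a liver, the value was -0.36 to -0.18 for Hspa13 and -0.34 to -0.20 for Dnajb9, both nearest 0 without t-PBS 2.

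The abundant lumenal chaperones differed between livers rather than between groups. Hspa5 measured 429, 639 and 326 FPKM in t-PBS and 351, 542 and 561 FPKM in t-DHEA livers. Hsp90b1 measured 231, 303 and 196 FPKM in t-PBS and 210, 285 and 324 FPKM in t-DHEA livers. Both were high in t-PBS 2, t-DHEA 2 and t-DHEA 3, and low in the other 3 livers. The log2 fold changes were 0.10 ± 0.25 for Hspa5 (adjusted p = 0.990) and 0.21 ± 0.19 for Hsp90b1 (adjusted p = 0.987; SE, edgeR quasi-likelihood), and the standard errors leave room for differences of over 1.2-fold in either direction for Hspa5. Dnajc3, a co-chaperone of BiP, at 128, 155 and 94.4 against 107, 128 and 141 FPKM, and Dnajb11 (ERdj3), at 41.9, 62.8 and 39.6 against 36.6, 61.1 and 54.3 FPKM, followed the same livers, judged on CPM. From the lowest to the highest liver, CPM spanned 1.89-fold for Hspa5, 1.67-fold for Hsp90b1, 1.66-fold for Dnajb11 and 1.58-fold for Dnajc3.

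**Figure D4:**
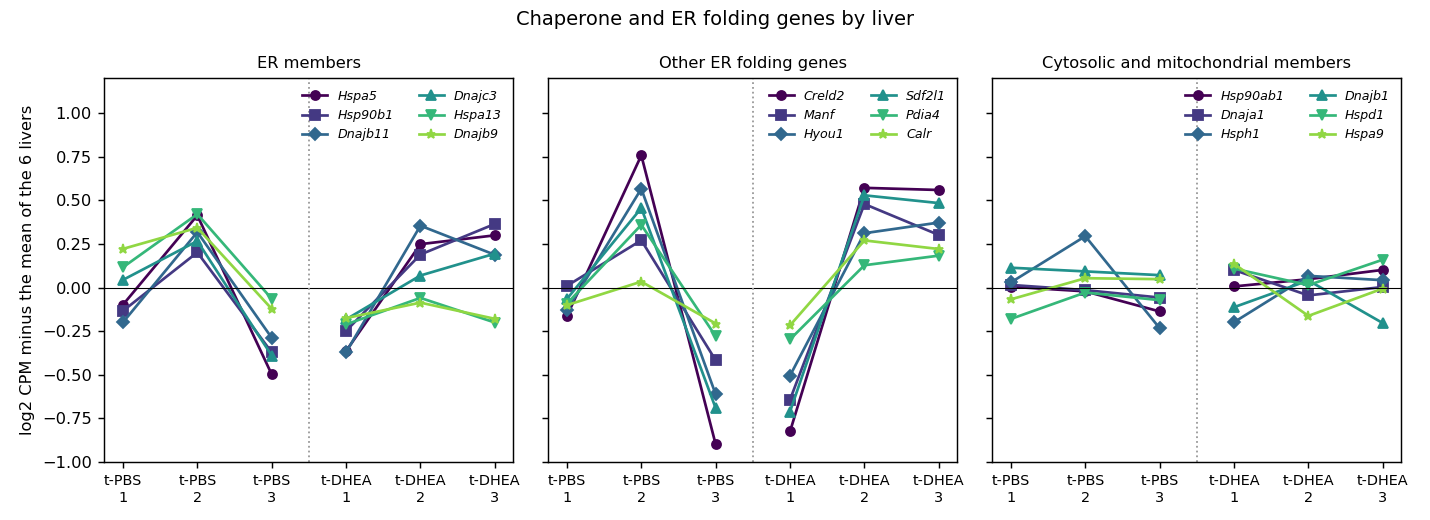
Deviation of log2 CPM from the gene's mean over 6 livers for 6 ER members, 6 other ER folding genes and 6 cytosolic or mitochondrial members, in each liver (lines join the points of a gene within a group and stand for no order). Hspa5, Hsp90b1, Dnajb11 and Dnajc3 and the genes of the middle panel have their 3 highest values in t-PBS 2, t-DHEA 2 and t-DHEA 3, while Hspa13 and Dnajb9 are highest in t-PBS 2 and low in all t-DHEA livers. All 6 genes of the middle panel are among the 12 of 29 other ER folding genes that share the 3 livers of Hspa5. Genes of that list with another order of livers are not drawn.

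The same 3 livers stood highest for much of the ER folding pathway. Taking Hspa5 as the guide, a choice made after its values were seen, 3 of the 13 other ER members (23.1%) had their 3 highest CPM values in the same livers, as had 12 of 29 other ER folding and unfolded protein response genes (41.4%), 2 of 43 members outside the ER (4.65%; Dnajc2 and Hsph1) and 707 of 12209 other genes (5.79%). The 12 genes were Hyou1, Calr, Pdia3, Pdia4, Pdia6, P4hb, Sdf2l1, Creld2, Manf, Sel1l, Derl1 and Xbp1. These include the lumenal Hsp110 Hyou1, protein disulphide isomerases and the secreted stress proteins Creld2 and Manf. Creld2 had the widest range of them, at 57.0, 108 and 34.2 CPM in t-PBS and 36.0, 94.9 and 94.1 CPM in t-DHEA livers, a 3.16-fold span, and Sdf2l1 spanned 2.37-fold. Others of the 12 varied little, with spans of 1.15-fold for Derl1, 1.18-fold for P4hb and 1.24-fold for Xbp1. Other stress genes did not follow: Atf4 (155 to 215 CPM), Ddit3 (7.47 to 10.5 CPM) and Herpud1 (111 to 163 CPM) were ordered otherwise. These counts describe 6 livers, with genes that are not independent of each other, and carry no test.

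The promoter motif was set beside this pattern. Of 13 other tested genes with the ER stress element in their promoter, 5 (38.5%) shared the 3 livers of Hspa5, beside 5.79% of all other genes. They were Calr, Creld2, Dnajc3, Hsp90b1 and Xbp1, all ER members or genes of the ER folding list. Canx, of the same list, holds the element but did not share these livers, and it varied 1.12-fold, beside 1.24-fold for Xbp1. Ankmy2, Birc5, Hnrnpa3, Pan2, Ppm1l, Zfand2a and Zfp57, which are not ER members or in that list, hold the element and did not share them either. Whether the element has a part in the pattern was not tested. Hspa13 and Dnajb9 did not hold these letters in the window searched.

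None of the 29 tested genes of the ER folding list was called between the groups by edgeR or DESeq2 (median log2 fold change 0.03), with 17 higher and 12 lower. Without t-DHEA 1, the t-DHEA liver in which Hspa5 was low, 4 of them were called higher (Calr 0.33, Pdia3 0.27, Pdia6 0.32 and Chac1 1.2 on the log2 scale). In that setting 747 of 12433 genes were called in either direction, against 604 of 12210 with all livers. Leaving out a liver low in Hspa5 raises the t-DHEA mean of genes that vary with Hspa5, so this count carries little weight. The value of Hspa5 ranged from -0.09 to 0.38 as each liver was left out in turn. The direction of Hspa5 between groups depended on which livers entered.

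Among the other ER members, the low Dnajb14 spanned 1.93-fold, as wide a range as Hspa5, at 3.71, 4.79 and 2.56 CPM in t-PBS and 4.95, 2.99 and 3.94 CPM in t-DHEA livers, with another order of livers. Dnajc18 lay at 3.99 to 4.98 CPM in t-PBS and 5.17 to 6.60 CPM in t-DHEA livers, and Dnajc16 at 10.6 to 11.9 against 12 to 13.6 CPM, with log2 fold changes of 0.31 ± 0.18 and 0.18 ± 0.12 (SE) that did not meet the call. Dnajc10 (ERdj5), a reductase with a J domain, lay between 42.6 and 46.9 CPM, and Dnajc1 between 26.6 and 31.3 CPM. The median SD of log2 CPM within groups was 0.175 for ER members, 0.106 for cytosolic members and 0.112 for mitochondrial members, against 0.188 for all genes.

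The mitochondrial set held none of the calls, and its 8 tested members all stayed within 1.2-fold. Hspd1 measured 271, 301 and 292 CPM in t-PBS and 331, 310 and 343 CPM in t-DHEA livers. Every t-DHEA liver exceeded every t-PBS liver in CPM, but in FPKM t-DHEA 2 (138) lay below t-PBS 2 (141). The log2 fold change was 0.19 ± 0.10 (SE), 1.14-fold, and did not pass (edgeR quasi-likelihood adjusted p = 0.974). Hspa9 (mortalin), the matrix Hsp70 that pulls in imported proteins, had 251, 273 and 272 against 289, 235 and 262 CPM and no split by group (-0.02 ± 0.11). Dnaja3 (Tid1), its DnaJ partner, was at -0.07 ± 0.08 and Dnajc19, a member of the import motor, at 0.07 ± 0.12 (log2, SE), and the row of the latter overlaps that of Fxr1. Dnajc30 lay at 9.05 to 9.95 CPM in t-PBS and 10.3 to 12.3 CPM in t-DHEA livers, and Dnajc15 at 10 to 13.4 and 12.3 to 15.2 CPM. Of 12 other mitochondrial folding and protease genes none was called by edgeR or DESeq2 (median log2 fold change -0.008), among them the mitochondrial Hsp90 Trap1 (0.05 ± 0.10) and Lonp1 (-0.03 ± 0.09).

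Dnajc22, a membrane DnaJ protein without an assigned place here, was the most abundant of the remaining members at a mean of 62.7 FPKM, and its log2 fold change was 0.01 ± 0.09 (SE).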

How the data were processed

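Reads from paired-end Illumina libraries of 6 livers were, per the study's methods and the submitters' processing notes, filtered, mapped to Rnor_6.0 with HISAT2 2.0.4 and counted per gene with StringTie 1.3.0; annotation release and strand setting are not given in the sources used here. The authors deposited raw counts and, from them, FPKM values per gene. Counts were tested with edgeR 4.0.16 (R 4.3.3; filterByExpr, TMM, glmQLFit and glmQLFTest), with the study's thresholds of unadjusted p below 0.05 and fold above 1.2. The study ran edgeR on FPKM values; counts were used here instead. FPKM was used for levels between genes. Groups came from the sample labels, and p-values set the group difference against the spread between 3 livers per group. In edgeR that spread was drawn towards a trend over all genes. The p-values and SE are therefore not from each gene's own spread alone. The study housed rats in pairs, and the labels do not say which livers came from 1 cage. Because pellets were pooled, the p-values do not cover variation between donor pools. Alternatives were RLE factors, DESeq2 1.42.0, a minimum of 10 counts per liver or no filter at all, limma 3.58.1 on log2(FPKM + 0.1), a fold of 1.5, a replicate block and leaving out each liver.

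Members and lists were chosen with earlier results of these data known. Named members were those called, those with separated groups and at least 1 CPM, per list the 3 highest in FPKM and 3 lowest in p, and 17 standard chaperones; called genes of other lists were named too. Promoters (250 bases before to 50 after the start) came from RefSeq GRCr8, matched by symbol, with the first listed promoter of each symbol used for members. Protein sequences and their identities were not analysed here.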

Additional observations from a re-analysis of the deposited data

How the results depend on the processing

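The count of called chaperones was 5 and fell to 3 with DESeq2 and to 3 with a fold above 1.5; it was 7 with limma, 6 without a filter, 4 with at least 10 counts in every liver, 4 with the replicate block, and 2 to 6 when a liver was left out (3 without t-PBS 1, 2 without t-PBS 2, 2 without t-DHEA 1 and 3 without t-DHEA 3). Over all genes the calls numbered 604, and 414 to 776 under the alternatives (539 with the replicate block). Replicate numbers did not pair the livers: the correlations of their deviations were -0.057, -0.059 and -0.055. The mitochondrial median log2 fold change was 0.024, and -0.012 to 0.078 without each liver. The ER median was 0.076, and -0.005 (without t-PBS 3) to 0.169 (without t-PBS 2). The cytosolic median was -0.019, and -0.006 to 0.026.

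Several uncalled members changed sign. Without each liver in turn, the log2 fold change was -0.04 to 0.33 for Dnajb11, -0.13 to 0.20 for Dnajc3, -0.09 to 0.38 for Hspa5, -0.0025 to 0.07 for Dnaja1, -0.13 to 0.36 for Dnajc12, -0.05 to 0.02 for Hspa4, -0.19 to 0.08 for Hsph1, -0.10 to 0.06 for Hspa9, -0.04 to 0.05 for Dnajc22, -0.09 to 0.40 for Hspb1 and -0.54 to 0.06 for Hspb6, which was called lower without t-DHEA 2 (-0.54). In limma it was -0.00071 for Dnaja1 and -0.03 for Dnajc22. The cause was not tested. Hspa1l had no value with at least 10 counts in every liver, and -2.39 to -1.58 under the others. With 3 livers a group and few counts, changes of low genes such as Hspa1l have wide errors.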
